A study of Mus musculus with 6 samples.

Results

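The 7 genes described here, S100b, Sox10, Gfap, Erbb3, Ngfr, Entpd2 and Cdh19, are named by their use as markers of enteric glia, and were taken by symbol from a table of 43432 mouse gene identifiers. All 7 had a row, and all 7 passed the filter on low counts that left 16119 genes for testing. The study profiled colon tissue of wild-type mice by poly(A) RNA sequencing, with 1 library per mouse. The stressed mice (10, 11 and 13) went through 3 episodes of 30-min restraint, a confinement used as a stressor, and their colon was taken right after the last episode. The resting mice (15, 17 and 19) are labelled as resting, although their records carry the same note on restraint. The labels give neither age nor sex, and of the strain only that it is wild type. The question of the comparison is what repeated short restraint does to the RNA of the colon, and here what it does to the RNA of glial genes.

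Enteric glia are the supporting cells of the gut's own nervous system. They arise from the neural crest, lie around neurons in the ganglia of the gut wall and send processes into the muscle and the mucosa beneath the epithelium. They are known for taking part in signalling by purines released from neurons, and for a reactive state in inflamed gut. A piece of colon wall holds few of them among epithelial, muscle and stromal cells, so each marker is read here as an amount of RNA in the whole tissue. In such a sample fewer glial cells and less RNA per glial cell cannot be told apart.

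None of the 7 genes passed the test for a change with restraint. The largest estimate was that of S100b, 1.43-fold higher in stressed colon, with an interval that still holds no change (0.966-fold to 2.13-fold). Gfap was estimated at 1.14-fold, and the other 5 genes lay between 0.965-fold and 1.01-fold. In the test across all genes (edgeR quasi-likelihood, Benjamini-Hochberg) 0 of the 7 had an adjusted p under 0.05, against 0.031% of all genes tested, 5 genes (0.0248% higher and 0.0062% lower in stressed mice). At an unadjusted p under 0.05 the count was also 0 of 7, where 6.92% of all genes passed, and DESeq2 and limma-voom called 0 of 7 as well. The values of the 3 stressed and 3 resting mice overlapped for every one of the 7, while over all genes tested the groups did not overlap for 12.7%. The median log2 fold change of the 7 was 0.01, with 4 above and 3 below 0, beside a median of -0.00 (-0.00334) over all genes tested.

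The libraries held 16425525 to 19819267 counts, and their scaling factors lay between 0.9849 and 1.02. Every pair of libraries differed by more than counting noise, with a chi-square of at least 7.74 per gene. The resting mice were not alike in some genes that mark position along the gut. For Hoxa13, a homeobox gene of the most distal gut, the CPM (counts relative to the scaled library total) of stressed mice 10, 11 and 13 were 2.26, 1.80 and 0.608, and those of resting mice 15, 17 and 19 were 15.5, 11.6 and 1.82. Hoxb13, singled out after its values were seen, had 11 and 6 counts in resting mice 15 and 17 and 0 in the other 4 libraries. Resting mouse 19 thus lay within the range of the stressed mice in both. Among the other tested genes of the list it lay within that range for Hoxa10, Hoxa11, Hoxd8 and Hoxd11, and below it for Hoxd9 and Hoxd10. Its part in the results below was not tested beyond leaving each mouse out in turn.

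S100b encodes a small calcium-binding protein of astrocytes, Schwann cells and enteric glia, which is also released and can act on the receptor encoded by Ager. The gene (ENSMUSG00000033208) lies on chromosome 10 from 76253853 to 76261159 in mm10, on the plus strand. Its level in stressed mice 10, 11 and 13 was 2.46, 3.32 and 2.98 CPM, and in resting mice 15, 17 and 19 it was 2.69, 1.76 and 1.66 CPM. The same order of mice holds for the values below. Resting mouse 15 lay above stressed mouse 10, so the groups overlapped, while resting mice 17 and 19 lay below all 3 stressed mice. The stressed mean was 2.92 ± 0.434 CPM and the resting mean 2.04 ± 0.568 CPM (SD, n = 3 for both). This is a log2 fold change of 0.52 ± 0.26 (SE; 95% interval -0.05 to 1.09; edgeR adjusted p = 0.737). These values rest on 48, 61 and 49 counts in stressed and 45, 30 and 30 counts in resting libraries. S100b was the most variable of the 7 genes, with a coefficient of variation over the 6 libraries of 26.7%, where counting alone gives 15.1%. Leaving out resting mouse 15 raised its log2 fold change to 0.77, and leaving out resting mouse 19 lowered it to 0.39; with each mouse left out in turn the adjusted p stayed at 0.788 or above. Of all genes tested, 4.92% had a larger log2 fold change in size.

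The bases just before the start site show how these genes differ in sequence. Promoters of 4 of the 7 genes (S100b, Gfap, Ngfr and Entpd2) were matched in RefSeq (GRCm38.p6, the same assembly as mm10). The 250 bases before RefSeq's start of S100b and of Ngfr are given as the promoters with the fewest and the most CpG dinucleotides of these 4, with each CpG in capitals. Gfap ties with S100b. The windows start from RefSeq's start sites, which are not always the gene ends given here from GENCODE: the Ngfr window reaches into the gene as placed below, and the Gfap window lies inside its gene.
S100b, chr10:76253586-76253835, plus strand: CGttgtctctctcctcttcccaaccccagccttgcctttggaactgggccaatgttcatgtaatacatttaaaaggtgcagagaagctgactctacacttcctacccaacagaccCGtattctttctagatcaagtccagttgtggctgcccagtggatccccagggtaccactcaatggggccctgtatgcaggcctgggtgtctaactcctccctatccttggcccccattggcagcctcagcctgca
Ngfr, chr11:95587699-95587948, minus strand: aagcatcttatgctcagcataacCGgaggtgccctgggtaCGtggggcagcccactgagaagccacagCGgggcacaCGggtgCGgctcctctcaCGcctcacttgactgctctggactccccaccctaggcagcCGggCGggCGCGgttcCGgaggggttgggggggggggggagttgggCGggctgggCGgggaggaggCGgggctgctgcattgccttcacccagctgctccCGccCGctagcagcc
S100b and Gfap had 2 CpG each in this window, Entpd2 9 and Ngfr 16, beside a median of 6 over the 32851 promoters of the same length. The letters ACAAAG and ACAATG, which SOX proteins such as SOX10 are known to bind, and TATAAA were searched on both strands. None of the 3 was in the window of any of the 4 genes, and 16.5%, 10.7% and 12.4% of all promoters held them. The count table does not measure what these bases do.

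Sox10 encodes the transcription factor that neural crest cells need to become glia, and it is the member that marks the lineage itself. It lies on chromosome 15 from 79154908 to 79165240 (ENSMUSG00000033006). Sox10 was at 3.28, 3.54 and 3.34 CPM in the stressed and at 2.69, 3.82 and 3.98 CPM in the resting mice. The 3 stressed values lay inside the range of the resting values. The log2 fold change was -0.05 ± 0.21 (SE; 95% interval -0.51 to 0.41; edgeR adjusted p = 0.978), so a 1.5-fold change in either direction lies outside the interval, which runs from 0.703-fold to 1.33-fold. Resting mouse 15, the lowest of the 6 libraries for Sox10, was the highest resting library for S100b.

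Gfap encodes an intermediate filament protein of astrocytes and of a share of enteric glia, and it is often measured as a sign of reactive glia. The gene is ENSMUSG00000020932, on chromosome 11 from 102887336 to 102900912. It was at 3.64, 3.60 and 4.13 CPM in the stressed and at 3.83, 2.88 and 3.26 CPM in the resting mice. Stressed mouse 13 was highest, and resting mouse 15 lay above the other 2 stressed mice. The stressed mean was 3.79 ± 0.297 CPM and the resting mean 3.32 ± 0.477 CPM (SD, n = 3 for both). The log2 fold change was 0.19 ± 0.19 (SE; 95% interval -0.24 to 0.62; edgeR adjusted p = 0.888). Its spread over the 6 libraries, 12.3%, was no larger than counting alone gives (12.6%), with 49 to 71 counts per library.

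Erbb3 encodes the receptor that binds neuregulins and signals with ERBB2; glial precursors depend on it, and colon epithelium also makes it. It lies on chromosome 10 from 128567523 to 128589652 (ENSMUSG00000018166). Erbb3 was at 497, 439 and 481 CPM in the stressed and at 410, 512 and 482 CPM in the resting mice. The resting mice held both the lowest and the highest value. The log2 fold change was 0.01 ± 0.09 (SE; 95% interval -0.19 to 0.22; edgeR adjusted p = 0.986), the narrowest interval of the 7, from 0.874-fold to 1.16-fold. With 6863 to 9700 counts per library, counting error is 1.1%, against a spread of 8.17% over the 6 libraries.

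The level of Erbb3 stood apart from that of the other glial markers. Per kilobase of exon it averaged 78.2 CPM per kb over the 6 libraries, 69.3 times the level of Sox10 and 92.7 times that of Gfap. It made up 83.4%, 82.9% and 83.8% of the summed level of the 7 genes in stressed and 81.8%, 85.1% and 84.3% in resting mice. Its partner receptor Erbb2, which is also known from epithelium, stood at a like level of 52.5 CPM per kb, while the neuregulin gene Nrg1 was at 0.131 CPM per kb. Which cells the Erbb3 RNA came from was not tested. The sum of the other 6 genes was 16.40, 15.09 and 15.49 CPM per kb in stressed mice 10, 11 and 13, and 15.17, 14.96 and 14.97 CPM per kb in resting mice 15, 17 and 19.

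Ngfr encodes the p75 neurotrophin receptor, found on glia and Schwann cells and also on some stromal and nerve cells. It is ENSMUSG00000000120, on chromosome 11 from 95568818 to 95587735. It was at 6.10, 5.34 and 5.10 CPM in the stressed and at 5.26, 4.58 and 7.19 CPM in the resting mice. The single highest value was that of resting mouse 19 and the lowest that of resting mouse 17, so the stressed mice lay between them. The log2 fold change was -0.04 ± 0.19 (SE; 95% interval -0.47 to 0.39; edgeR adjusted p = 0.979). Without resting mouse 19 it was 0.17 and without resting mouse 17 it was -0.17.

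Entpd2 encodes the enzyme on the surface of enteric glia that breaks down extracellular ATP. It lies on chromosome 2 from 25395874 to 25401321 (ENSMUSG00000015085), and 612 of its 2128 exon bases are shared with Npdc1 on the same strand, so part of its count is uncertain. It was at 18.3, 15.3 and 17.4 CPM in the stressed and at 16.8, 17.5 and 16.2 CPM in the resting mice. The stressed mice held the highest and the lowest value, and all 6 libraries lay within a factor of 1.2 (highest over lowest). Its log2 fold change was 0.01 ± 0.10 (SE; 95% interval -0.22 to 0.25; edgeR adjusted p = 0.986).

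Cdh19 encodes a cadherin of the neural crest and its glial descendants. The gene is ENSMUSG00000047216, on chromosome 1 from 110888326 to 110977584. It was at 10.4, 9.04 and 7.41 CPM in the stressed and at 9.21, 9.81 and 8.90 CPM in the resting mice. The resting values lay inside the range of the stressed values. Its log2 fold change was -0.05 ± 0.15 (SE; 95% interval -0.38 to 0.28; edgeR adjusted p = 0.967).

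**Figure D1:**
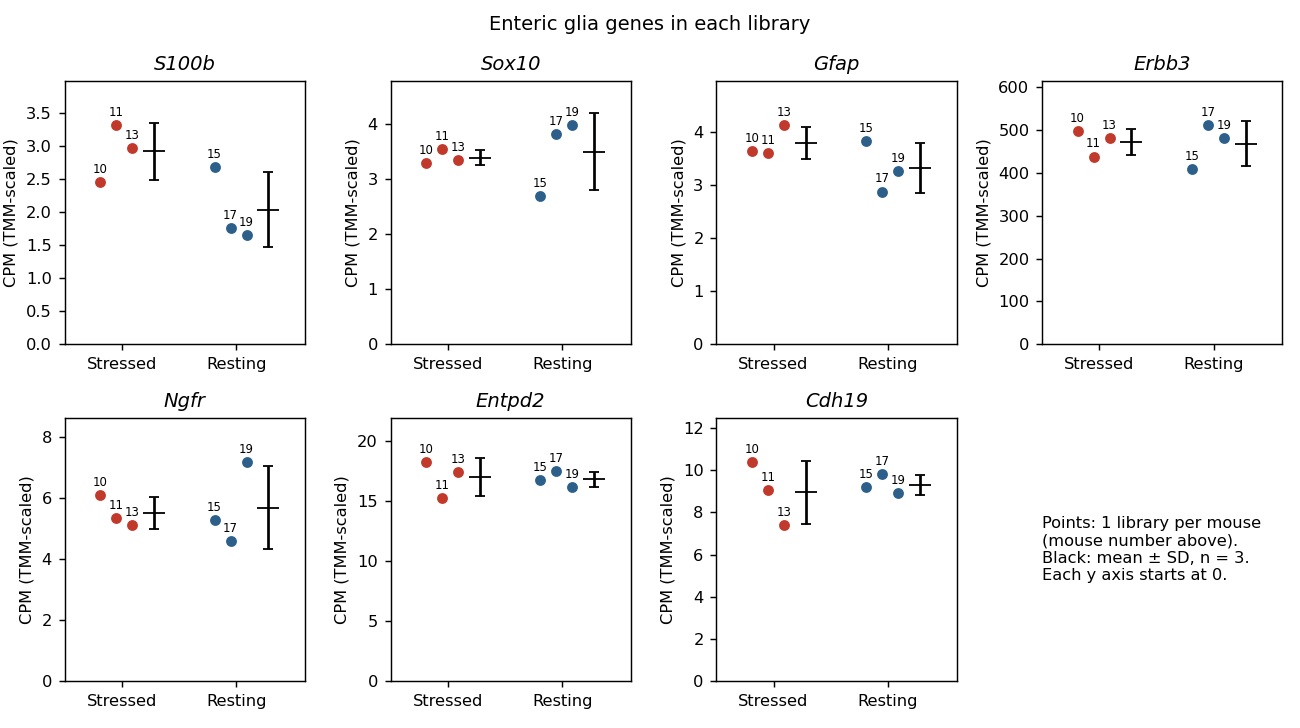
CPM (y axis, from 0) of each of the 7 genes in the 3 stressed libraries (red, left) and the 3 resting libraries (blue, right), with mouse numbers and the mean ± SD in black. The points of the groups overlap in every panel, and S100b has the largest fold change, with a stressed mean of 2.92 CPM and a resting mean of 2.04 CPM.

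The order of the 7 genes by level per kilobase of exon began with Erbb3, followed by Entpd2 at 7.95 CPM per kb and Cdh19 at 2.13. S100b (1.67), Ngfr (1.62), Sox10 (1.13) and Gfap (0.843 CPM per kb) came after them. Erbb3 lay above Entpd2, Entpd2 above Cdh19 and Ngfr above Sox10 in 6 of 6 libraries. The neighbours Cdh19 and S100b kept their order in 4 of 6 libraries and S100b and Ngfr in 3 of 6, so neither of these neighbouring pairs had an order that held in every mouse. Sox10 was above Gfap in 5 of 6. The lengths are those of all annotated exons joined, which lowers the level of a gene with long exons that few of its transcripts use.

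**Figure D2:**
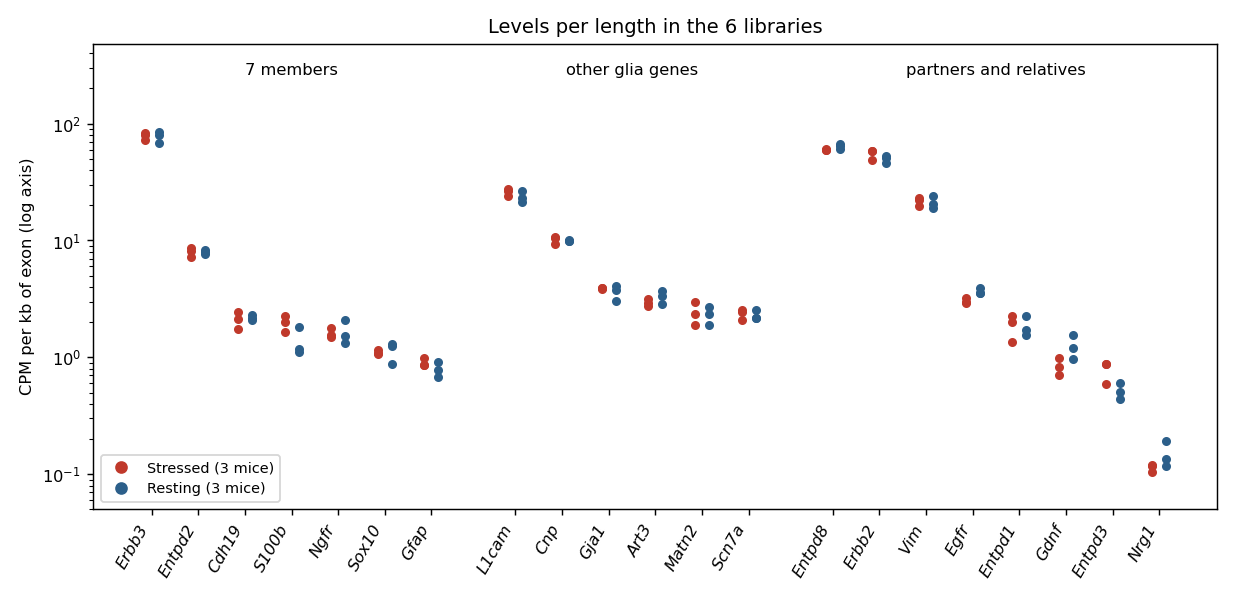
Level in CPM per kb of exon (log axis) of the 7 genes, of 6 other glia genes and of 8 partners or relatives, with stressed mice in red and resting mice in blue. Erbb3 stands at 78.2 CPM per kb, near Erbb2 at 52.5, and Sox10 and Gfap at 1.13 and 0.843.

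No shared pattern of the 7 genes over the mice was seen, but these data could easily miss one. Over the 21 pairs, Pearson's r of log2 CPM across the 6 libraries ranged from -0.66 (Sox10 with Gfap) to 0.793 (S100b with Gfap), with a median of 0.01 (0.0132) and 11 pairs above 0. The libraries share their groups and preparation, and several members rest on fewer than 100 counts, so these are descriptions of 6 libraries. For Sox10, Gfap and Entpd2 the coefficient of variation (13.3%, 12.3% and 6.38%) was close to what counting alone gives (12.8%, 12.6% and 5.78%). Their correlations could therefore lie near 0 whether or not the 7 genes vary together. S100b had an r of -0.571 with Sox10 and of 0.183 with the mean standardised level of 22 enteric neuron genes. With these neuron genes the 7 members ranged from -0.189 (Entpd2) to 0.54 (Sox10). With the smooth muscle genes they ranged from -0.542 (Ngfr) to 0.498 (S100b). With the colon epithelium genes they ranged from -0.365 (Cdh19) to 0.732 (Ngfr), with Erbb3 at -0.253. With the other enteric glia genes they ranged from -0.633 (Ngfr) to 0.428 (Erbb3). Among 13630 other genes with a mean of at least 1 CPM, those with the highest likeness to the mean standardised level of the 7 included Tbc1d15 (r = 0.987), Psmc3ip (0.978), Asb4 (0.976) and Chst8 (0.971), each over 6 libraries. None of these 4 passed the test (edgeR adjusted p of 0.805 or above), with log2 fold changes of 0.13, 0.30, 0.20 and 0.42. They were picked as the highest r among 13630 genes over only 6 libraries. The mean they were set against joins genes with a median pairwise r of 0.01. Their r therefore does not show that these 4 genes follow glia.

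Of 20 other genes of enteric glia 16 were tested, and 0 changed (edgeR adjusted p under 0.05), with 11 above and 5 below 0 and a median log2 fold change of 0.04. The 4 that were too low to test include the glial transcription factor gene Sox2, with 5 to 10 counts in stressed and 3 to 20 counts in resting libraries, and Fabp7, with 1 count in all. Ttyh1, which encodes a membrane protein of glia and neural stem cells, was at 8.97, 11.9 and 13.7 CPM in the stressed and 7.89, 8.75 and 6.58 CPM in the resting mice. All 3 stressed mice lay above all 3 resting ones. Its log2 fold change was 0.57 (0.18 to 0.96), with an edgeR adjusted p of 0.545. Gfra3, a receptor of the GDNF family, was the lowest at -0.57 (-1.25 to 0.12, edgeR adjusted p = 0.761). It was at 1.08, 1.04 and 0.851 CPM in the stressed and 1.97, 1.17 and 1.27 CPM in the resting mice. All 3 stressed mice lay below all 3 resting ones, but on only 21, 19 and 14 against 33, 20 and 23 counts. Before scaling, stressed mouse 10 had more counts than resting mouse 17. The groups did not overlap for 2 of the 16 tested genes, beside 12.7% of all genes tested.

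The 6 of these genes with the highest level per kilobase had small log2 fold changes. These were 0.14 for the adhesion molecule gene L1cam, 0.03 for Cnp, 0.09 for the connexin 43 gene Gja1, -0.17 for Art3, 0.05 for Matn2 and 0.04 for the sodium channel gene Scn7a. L1cam was at 24.9 CPM per kb and Cnp at 10.1, above all of the 7 genes except Erbb3. Their share from cells other than glia was not tested.

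**Figure D3:**
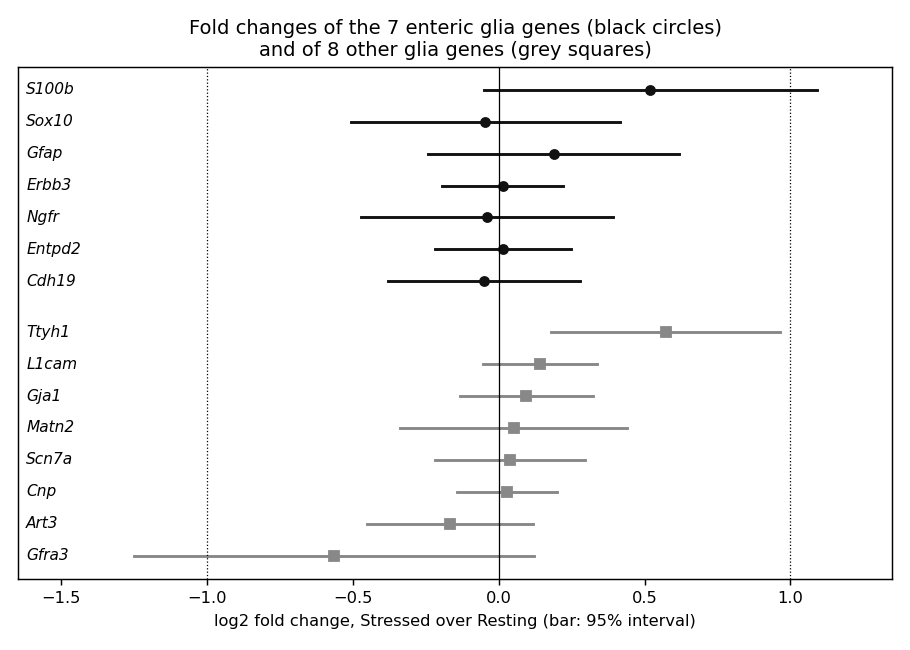
Log2 fold change, stressed over resting, with its 95% interval for the 7 genes (black) and 8 other glia genes named in the text (grey); dotted lines mark a change of 1 on the log2 scale. Every interval of the 7 covers 0, and that of S100b alone among them reaches past 1, to 1.09.

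The partners of the members were also compared. Of 7 genes for ErbB receptors and neuregulins 5 were tested and 0 changed, with 3 higher and 2 lower. Egfr, the receptor of epidermal growth factor, was at 33.7, 36.2 and 33.2 CPM in the stressed and 40.0, 40.6 and 44.0 CPM in the resting mice, without overlap, at a log2 fold change of -0.27 (-0.44 to -0.11, edgeR adjusted p = 0.468). Erbb2 had 0.15 (-0.04 to 0.34). Among neurotrophins, GDNF-family ligands and their receptors 10 of 14 were tested and 0 changed, with 5 in each direction. The neurotrophin gene Ntf3 had -0.70 (-1.38 to -0.03, edgeR adjusted p = 0.694) at a mean of 0.756 CPM in stressed against 1.24 CPM in resting mice. Ntf3 rests on only 15, 13 and 13 counts in stressed and 18, 26 and 20 counts in resting libraries. Gdnf, the growth factor of enteric neuron precursors, had -0.55 (-1.06 to -0.04, edgeR adjusted p = 0.672). Its mean was 3.10 CPM in stressed against 4.55 CPM in resting mice.

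Of 17 genes for purine breakdown and purine receptors, 16 were tested and 0 changed, with 6 higher and 10 lower. Entpd3, a relative of Entpd2, had a log2 fold change of 0.60 (0.04 to 1.16) and Ada, the adenosine deaminase gene, -0.42 (-0.78 to -0.06), with edgeR adjusted p-values of 0.693 and 0.646. Of 11 transcription factors of the neural crest 5 were tested and 0 changed, with 2 higher and 3 lower. Sox9, the closest relative of Sox10 that was tested and also a gene of crypt epithelium, was at 42.8, 47.7 and 43.7 CPM in the stressed and 53.2, 73.5 and 52.7 CPM in the resting mice. The log2 fold change of Sox9 was -0.42 (-0.69 to -0.15, edgeR adjusted p = 0.494, and 0.0169 without the filter on low counts). Sox9 passed only in the fit without the filter, which called 151 genes in all, against 5 with it. The adjusted p of Sox9 was 0.184 with DESeq2 and 0.576 with limma-voom.

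Intermediate filament genes and genes of reactive glia had 12 of 14 tested, 6 in each direction and 0 changed. The complement gene C3 was at 61.0, 66.1 and 96.8 CPM in the stressed and 25.9, 52.0 and 37.3 CPM in the resting mice, without overlap. Its log2 fold change was 0.96 (0.45 to 1.46, edgeR adjusted p = 0.409, and 9.12e-06 without the filter on low counts), and Steap4 had 0.41. C3 too passed only without the filter, and its adjusted p was 0.463 with DESeq2 and 0.409 with limma-voom. Of the S100 family and Ager, 10 of 12 were tested, with 6 higher and 4 lower, and 1 changed. This was S100g, the gene of the epithelial calcium carrier calbindin-D9k, with a log2 fold change of 1.78 (1.42 to 2.15, edgeR adjusted p = 0.00858, but 0.106 without resting mouse 15); S100a14 had -0.19. Of 8 other cadherins 6 were tested and 0 changed, with 5 higher and 1 lower. N-cadherin gene Cdh2 had 0.40 (0.07 to 0.73, edgeR adjusted p = 0.637) without overlap and Cdh5, of endothelium, -0.27.

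Neurons, muscle and the other cells around the glia were read from marker lists in the same fit, with no test of a list. Of 22 enteric neuron genes 20 were higher and 2 lower, with a median log2 fold change of 0.20 and 0 changed. The groups did not overlap for 6 of the 22, beside 12.7% of all genes tested, and over all genes tested 7906 were higher and 8213 lower. Tubb3, the neuronal tubulin gene, had 0.45 and Nefl, a neurofilament gene, 0.70. The summed level of the neuron list was 246 to 275 CPM in stressed and 200 to 249 CPM in resting mice. Of 15 smooth muscle genes 13 were higher, with a median of 0.11 and 0 changed; Ldb3 had 0.51 (adjusted p of 0.212 with edgeR, 0.00145 with edgeR without the filter and 0.0102 with DESeq2) and Hspb7 0.27, and the sums were 4343 to 5014 CPM in stressed and 3881 to 4816 CPM in resting mice. The medians of the neuron and muscle lists thus lay above the 0.01 of the 7 glial genes, a difference that was not tested.

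Some cell types share markers with glia. Of 6 melanocyte genes 3 were tested, with Dct at 0.65 and Mitf at -0.42, and Tyr and Tyrp1 were at 0 counts in all 6 libraries. Of 9 genes of myelinating Schwann cells 6 were tested, 3 in each direction, with Ncmap at 0.25 and Pmp22 at -0.07, and Cldn19 was at 0 counts in all 6. The summed levels were 5.44 to 7.14 CPM in stressed and 5.69 to 7.28 CPM in resting mice for the melanocyte list, and 491 to 548 CPM in stressed and 456 to 696 CPM in resting mice for the Schwann cell list. Genes of lymphoid follicles, where Ngfr can also be made, had 1 higher and 5 lower of 6 tested, with Cd79a at -0.77 and Cd79b at -0.67 and sums of 11.97 to 16.84 CPM in stressed and 13.15 to 20.67 CPM in resting mice. In each of these 3 lists 0 genes changed.

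Interstitial cells of Cajal had 2 higher and 3 lower of 5 tested (Etv1 0.20, Thbs4 -0.45), and fibroblasts 2 higher and 7 lower of 9 (Grem1 -0.77, Pdgfra -0.31). Colon epithelium had 10 higher and 2 lower of 12, with the carbonic anhydrase gene Car1 at 0.45 and the intestinal factor gene Cdx2 at 0.11, and sums of 34915 to 36745 CPM in stressed and 29983 to 33663 CPM in resting mice. Adipocyte genes had 9 higher and 1 lower of 10, a median of 0.29, and Plin1 at 0.73 and Retn at 0.95. Genes of distal position had 3 higher and 4 lower of 7 tested, with Hoxa13 at -2.60 and Hoxa10 at -0.99. In these 5 lists too 0 genes changed (edgeR adjusted p under 0.05). Some passed under other processing. Without the filter on low counts the edgeR adjusted p was 0.00454 for Car1, 0.0281 for Plin1, 0.00994 for Retn, 1.03e-05 for Hoxa13 and 0.00295 for Hoxa10. With DESeq2 the adjusted p was 0.00893 for Car1 and 0.0458 for Retn. For Hoxa13 the edgeR adjusted p was also 0.0378 with the smooth muscle score as a covariate and 0.0116 without resting mouse 19. The part of these cells in the glial values was not tested.

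**Figure D4:**
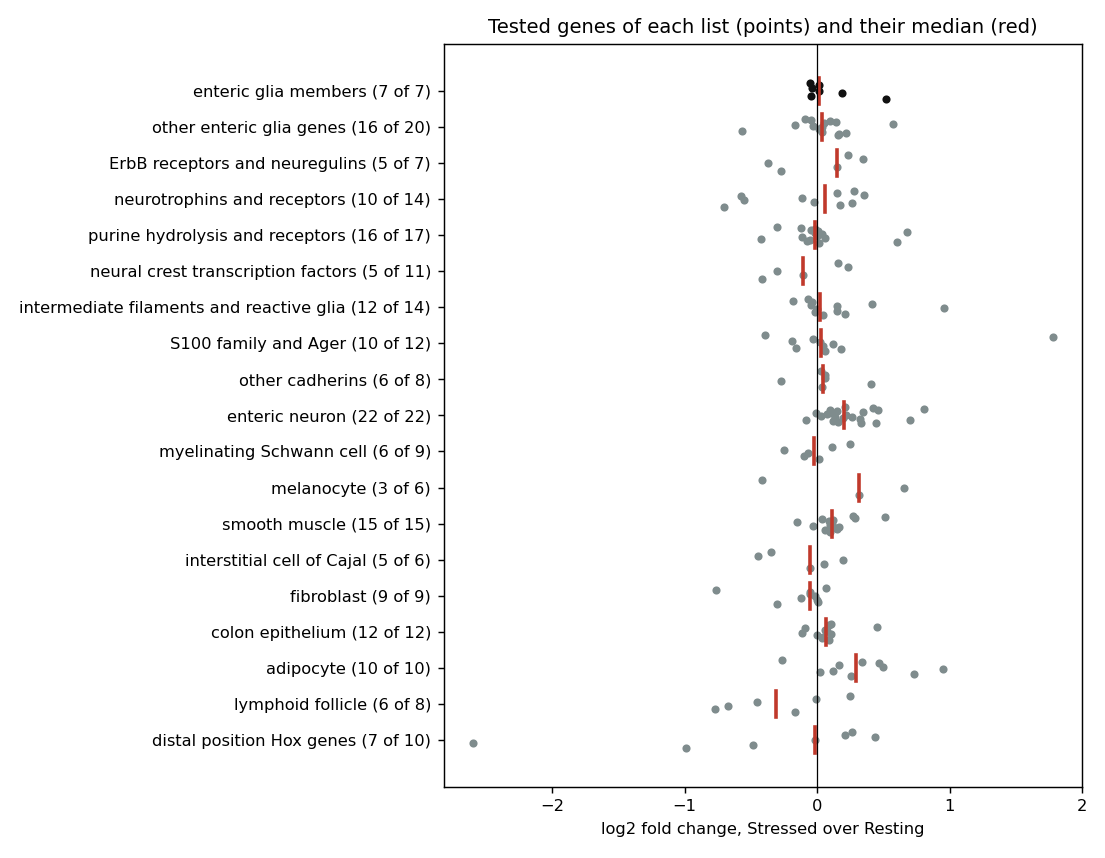
Log2 fold change, stressed over resting (x axis), of each tested gene (points) in 19 gene lists, with the list's median as a red bar; the numbers give tested of listed genes. The 7 glial genes centre on 0.01 and the enteric neuron genes on 0.20.

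With other scalings, filters and tests, with the smooth muscle or neuron score as a covariate, and with each mouse left out, 0 of the 7 had an adjusted p under 0.05. S100b stayed above 0 in all 14 fits that tested it, from 0.39 to 0.87 on the log2 scale, and Gfap in all 15, from 0.10 to 0.39. The highest value of both came with the neuron score as a covariate, where Sox10 had -0.32 and Ngfr -0.27. The 5 genes other than S100b and Gfap lay on both sides of 0. The neuron score was itself partly tied to group. It was 0.614, 0.771 and -0.0542 in stressed and -1.14, -0.34 and 0.144 in resting mice. The SE of S100b was 0.36 in the fit with this score, against 0.26 without it, so its values there are less certain.

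**Figure D5:**
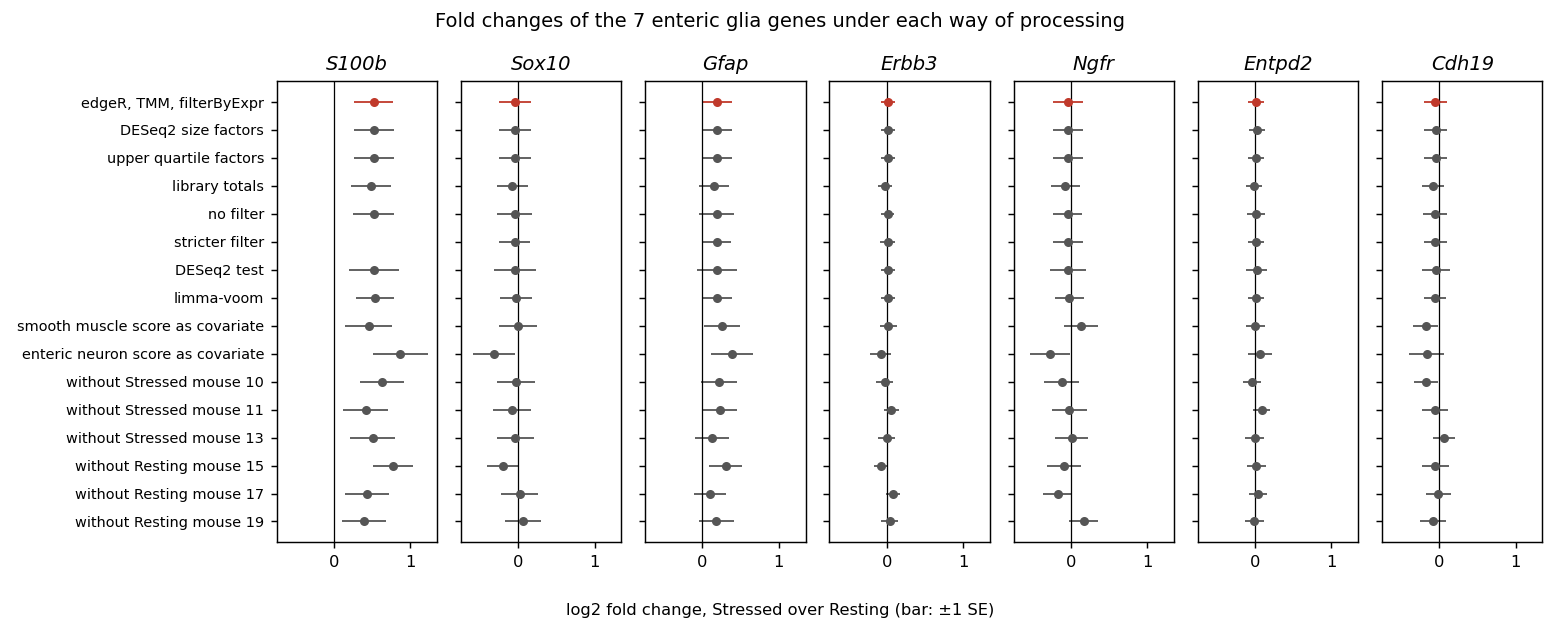
Log2 fold change, stressed over resting (x axis), with ±1 SE for each of the 7 genes under the edgeR fit of the text (red) and 15 other ways of processing (grey). S100b lies between 0.39 and 0.87 and has no value with the stricter filter, and the other 6 genes lie between -0.32 and 0.39.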

How the data were processed

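Poly(A) RNA of colon tissue from 3 stressed and 3 resting mice was sequenced as stranded libraries, per the labels' protocols. The authors deposited raw read counts per Ensembl gene. The tools fastp and HISAT2 and build mm10 are listed in the submitters' processing notes; the counter, annotation and strand setting were not given in the sources used here. Symbols were matched for 42462 of 43432 identifiers, and coordinates and exon lengths come from GENCODE M21 (mm10). Counts were tested with edgeR 4.0.16 (R 4.3.3; filterByExpr with minimum count 10 and total 15, TMM, quasi-likelihood F test, Benjamini-Hochberg over 16119 genes, threshold 0.05); SEs and 95% intervals come from the same fit. The code was also run on simulated counts with known changes, drawn from the kind of model that the test assumes. Those counts hold no differences between mice like those of Hoxa13, so the run does not show how the test fares with such differences. P-values set the difference between the groups against the spread between mice of the same group, which the fit estimates with help from all genes. The intervals are for that difference between the groups. Both rest on these 6 libraries.

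The 19 gene lists, which include the members, were chosen with earlier results of these data known. Genes named from the other lists are up to 4 past the threshold or, where fewer than 2 passed, the 2 with the smallest p; in the glia list also the 6 with the highest level per kilobase, and for likeness the 5 with the highest r; 1 gene of the crest list and 1 of the likeness list that this names are not reported here. Alternatives were DESeq2 1.42.0, limma-voom 3.58.1, 3 scalings, 2 filters (none, or at least 50 counts in 3 libraries), 2 covariates (mean standardised log2 CPM, prior count 2, of a list) and leaving out each mouse.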

Additional observations from a re-analysis of the deposited data

How the results depend on the processing

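The count of 0 called among the 7 glial genes held in all 15 alternatives. The count over all genes, 5, moved to 151 with no filter, 56 with the DESeq2 test, 3 with limma-voom, 11 with the smooth muscle score and 0 with the neuron score as a covariate and lay between 1 and 14 with 1 mouse left out. Of the 7, S100b had an unadjusted p under 0.05 with the neuron score, which is partly tied to group, and without resting mouse 15. The median of the 7 moved from 0.01 to -0.08 with the neuron score and -0.06 without resting mouse 15. Values near 0 changed sign, and so did Cdh5, which was at -0.27 in the main fit and at 0.0749 without resting mouse 17. With library totals Erbb3 was at -0.0182, Entpd2 at -0.0169 and Cnp at -0.00321; with the smooth muscle score Ngfr was at 0.14, Gja1 at -0.0256 and Scn7a at -0.077; with the neuron score Erbb3 was at -0.0796, Pmp22 at 0.0233, Matn2 at -0.161 and Scn7a at -0.0864. With 1 mouse left out Sox10 ranged from -0.199 to 0.0616, Erbb3 from -0.0705 to 0.0823, Ngfr from -0.175 to 0.171, Entpd2 from -0.043 to 0.0867, Cdh19 from -0.175 to 0.0645, Cdh5 from -0.455 to 0.0749, Pmp22 from -0.165 to 0.0237, Cnp from -0.014 to 0.0892, Gja1 from -0.0183 to 0.186, Matn2 from -0.131 to 0.202 and Scn7a from -0.0219 to 0.123. Of 665 values of the 45 other named genes 636 kept direction and side of the threshold, 13 passed it (8 genes, most often with no filter) and 2, both of S100g, no longer did. The cause was not tested. S100b, with 30 to 61 counts per library, is missing from the stricter filter, and its interval still holds a doubling. No paired analysis was possible because the groups share no mouse numbers.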
